A study of Mus musculus with 2 samples.

Results

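The 6 microRNA (miRNA) genes that lie within the mouse Hox clusters and have a row in the deposited tables, Mir10a, Mir10b, Mir615, Mir196b, Mir196a-2 and Mir196a-1, were followed in embryonic lung. They were chosen by name and position, with earlier results of these data known, and are 6 of 1973 miRNA genes listed. The libraries were made from total RNA of B6NCrl mouse lung at embryonic day 14.5 (E14.5), with RNA under 30 nt, and form 1 group of 2 biological replicates with no treatment, mutation or other stage. Per the labels each library is the lung of 1 pup, although the sex is given as mixed male and female, and the replicates were collected on different days. In whole lung, fewer cells of a type and less RNA per cell cannot be told apart.

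The Hox genes encode transcription factors that give the body regions of an embryo their identity, and their order within a cluster matches the order in which they are switched on from head to tail. Low-numbered genes act towards the head and high-numbered genes towards the tail. The mouse has 4 such clusters, HoxA to HoxD, with 39 protein-coding genes annotated. The miR-10 genes sit beside the group 4 Hox genes, Mir615 within Hoxc5, and the miR-196 genes beside the group 9 genes. MiRNAs of these families repress Hox messages, and miR-196 is known for directing cleavage of Hoxb8 mRNA. The lung buds from the anterior foregut, and Hoxa5, a gene of the anterior part of HoxA, is needed for its normal development.

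The mature sequences are shown because they decide which reads can be told apart. They are those of RefSeq on GRCm38.p6 (the mm10 assembly), where all 6 genes had entries, and are written 5′ to 3′ with the seed, bases 2 to 8, in capitals. The 5p products fall into 2 seed groups and miR-615 stands apart with its own seeds.
miR-10a-5p: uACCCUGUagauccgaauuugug
miR-10b-5p: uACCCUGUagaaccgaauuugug
miR-196a-5p: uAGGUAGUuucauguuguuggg
miR-196b-5p: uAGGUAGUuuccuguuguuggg
miR-615-3p: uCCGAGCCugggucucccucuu
miR-615-5p: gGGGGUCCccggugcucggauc
Counted from 1 at the 5′ end, miR-10a-5p and miR-10b-5p differ by the single substitution U12A, and miR-196a-5p and miR-196b-5p by A12C. Both substitutions lie outside the seed, and no other mature miRNA in the table carries either seed. The sequences of the miR-10, miR-196b and miR-615 products each occur in 1 annotated hairpin of 2202, whereas miR-196a-5p occurs in 2, those of Mir196a-1 and Mir196a-2.

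The 3p arms of the miR-196a genes are shown because they separate those genes.
miR-196a-1-3p: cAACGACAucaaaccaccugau
miR-196a-2-3p: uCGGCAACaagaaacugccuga
Each occurs in 1 hairpin. A read of exactly miR-196a-5p matches both genes, and the deposited tables enter multimapping reads in a summary entry and not under a gene. The counts of Mir196a-1 and Mir196a-2 are therefore lower bounds. The tables give 1 count per gene, so 5p and 3p products could not be separated for any of the 6 genes.

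In the mm10 annotation the 6 hairpins have the same strand as the Hox genes next to them. Mir10a (chr11:96317165-96317274, plus strand) lies 0.993 kb upstream of Hoxb4 and overlaps no other annotated gene. Mir10b (chr2:74726070-74726137, plus strand) lies in introns of Hoxd4 and Hoxd3, the corresponding part of HoxD. Mir615 (chr15:103014910-103015001, plus strand) lies in an intron of Hoxc5. Mir196b (chr6:52230081-52230165, minus strand) lies in an annotated exon of Hoxa9, 1.03 kb downstream of Hoxa10. Mir196a-2 (chr15:102973350-102973434, plus strand) lies between Hoxc10 and Hoxc9, 3.005 kb upstream of Hoxc9, and within an intron of a long annotated form of Hoxc5. Mir196a-1 (chr11:96265164-96265265, plus strand) lies 6.19 kb upstream of Hoxb9 and in no annotated gene. Within 50 kb of a Hox gene the annotation holds 1 further miRNA gene, Gm44463 in HoxD, which has no row in the tables and was not analysed here.

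**Figure D1:**
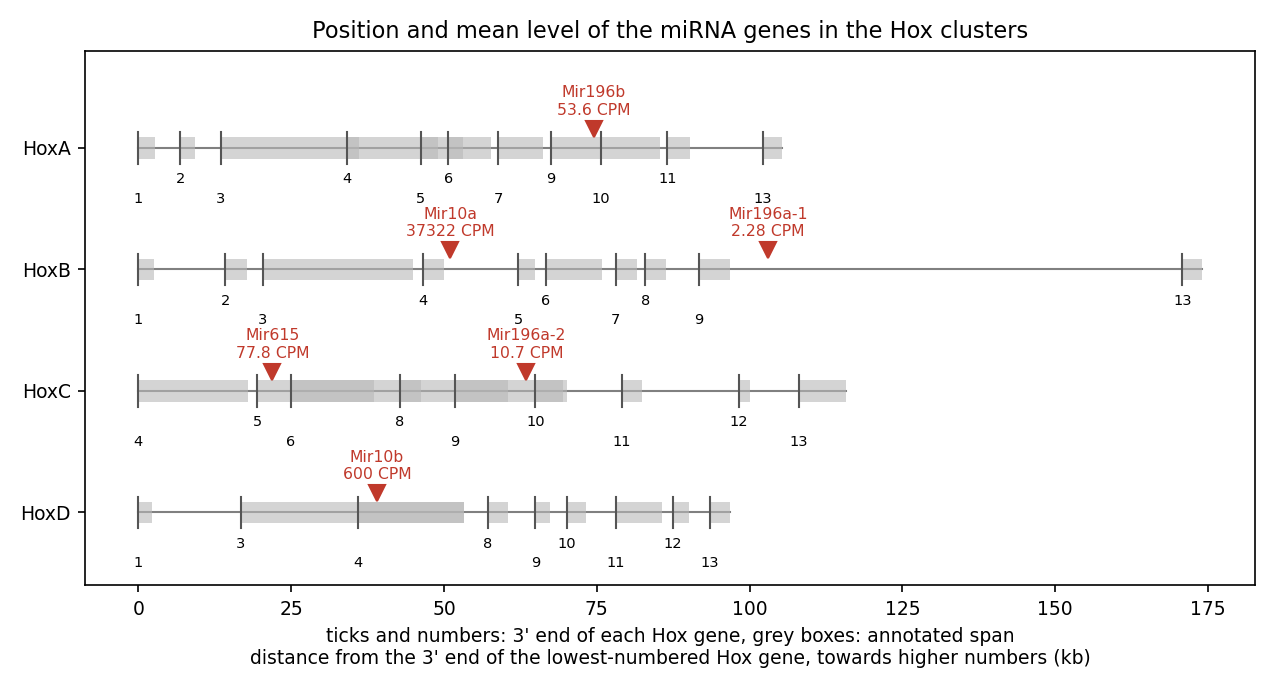
Position of the 6 miRNA genes (red triangles, with the mean level of both libraries in CPM, counts per 1000000 gene-strand miRNA counts) in the 4 Hox clusters. The horizontal axis is the distance in kb from the 3′ end of the lowest-numbered Hox gene, grey boxes are annotated gene spans, and numbered ticks mark the 3′ end of each Hox gene. Mir10a (37322 CPM) and Mir10b (600.1 CPM) lie at group 4. Of the 3 miR-196 genes (2.28 to 53.6 CPM), Mir196b lies within the span of the group 9 gene. Mir196a-2 lies between groups 9 and 10, and Mir196a-1 just beyond group 9.

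Replicate 1 held 5128214 counts on the strand of a miRNA gene and replicate 2 held 2332032, so that 1 count was worth 0.195 and 0.429 CPM, the counts per 1000000 gene-strand miRNA counts. Multimapping reads were 32.9% and 33.1% of all reads. As a check of the tissue, the epithelial miR-200 list (5 of 5 members detected) summed to 33294 and 33730 CPM and the endothelial Mir126a to 76033 and 58438 CPM. The heart muscle list, with 3 of 3 members detected, was far higher in replicate 1, with sums of 361 and 42.0 CPM. Most of that difference was Mir208a, at 299 and 11.6 CPM. Mir208b had 49.9 and 25.7 CPM and Mir499 had 12.5 and 4.72 CPM. Intervals below are 95% exact (Clopper-Pearson) binomial intervals and cover counting error only, since amplified reads need not be separate molecules.

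Among the Hox cluster miRNAs, the group 4 genes held nearly all counts. Mir10a, the HoxB copy of miR-10, had 180744 counts in replicate 1 and 91880 in replicate 2. These are 35245 CPM (35086 to 35405) and 39399 CPM (39150 to 39650), a mean of 37322 ± 2937 (SD, n = 2), at rank 8 and rank 7 of the genes listed. Mir10b, the HoxD copy with the same seed, had 2889 and 1485 counts, or 563 CPM (543 to 584) and 637 CPM (605 to 670). Its mean was 600.1 ± 51.9 CPM (SD, n = 2) and its rank 119 and 120. For both genes replicate 2 was the higher library, and the intervals of the 2 libraries did not overlap in CPM. For Mir10b this depended on the scaling between libraries (below). How many of all genes had intervals that did not overlap was not counted. In tests of counting error alone after scaling (below), 41.8% of the 404 genes tested were called as different between the libraries. Mir10a was among them and Mir10b was not.

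The proportion between the miR-10 copies was nearly the same in each library. The counts of Mir10a were 62.6 times those of Mir10b in replicate 1, and 61.9 times in replicate 2. The log2 ratio was 5.96 ± 0.01 (SD, n = 2). As a share of the counts of both copies, Mir10b made up 1.57% (1.52 to 1.63) and 1.59% (1.51 to 1.67). These intervals overlap almost entirely, and the ratio is taken within a library, so scaling between libraries does not enter it. The products differ by the base at position 12, and how many mismatches the authors' alignment allowed is not given in the sources used here. Whether any Mir10b counts are misassigned Mir10a reads was not tested.

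Mir615, the HoxC gene next in position towards the tail, was close to equal in the libraries. It had 398 and 182 counts, or 77.6 CPM (70.2 to 85.6) and 78.0 CPM (67.1 to 90.2), a mean of 77.8 ± 0.307 (SD, n = 2). It lay 7.26-fold below Mir10b in replicate 1 and 8.16-fold below it in replicate 2. The hairpin of Mir615 was the richest in G and C of the 6, at 69.6% against 39.7% to 48.0% for the others. How base composition affected capture was not tested.

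The miR-196 genes, at the tail end of the set, were low by assigned counts, and the HoxA copy held most of these counts. Mir196b had 145 counts in replicate 1 and 184 in replicate 2, although replicate 2 was the shallower library. Its levels were 28.3 CPM (23.9 to 33.3) and 78.9 CPM (67.9 to 91.2), a mean of 53.6 ± 35.8 (SD, n = 2), the widest spread relative to the mean among the 6 genes. Its rank moved from 241 to 202. The intervals of the 2 libraries lie far apart, so the mean describes neither library. The 5p products of miR-196a and miR-196b differ by the base at position 12. Whether any Mir196b counts are misassigned miR-196a reads was not tested.

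Mir196a-2 of HoxC had 50 and 27 counts, or 9.75 CPM (7.24 to 12.9) and 11.6 CPM (7.63 to 16.8), with a mean of 10.7 ± 1.29 (SD, n = 2). Mir196a-1 of HoxB had 8 and 7 counts, or 1.56 CPM (0.673 to 3.07) and 3.002 CPM (1.21 to 6.18), with a mean of 2.28 ± 1.02. For both miR-196a genes the intervals of the libraries overlap. Both together made up 28.6% (22.5 to 35.3) of miR-196 counts in replicate 1 and 15.6% (11.05 to 21.1) in replicate 2, and Mir196b the rest. Since multimapping miR-196a reads are under no gene, these shares do not give the proportion of miR-196a to miR-196b molecules.

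**Figure D2:**
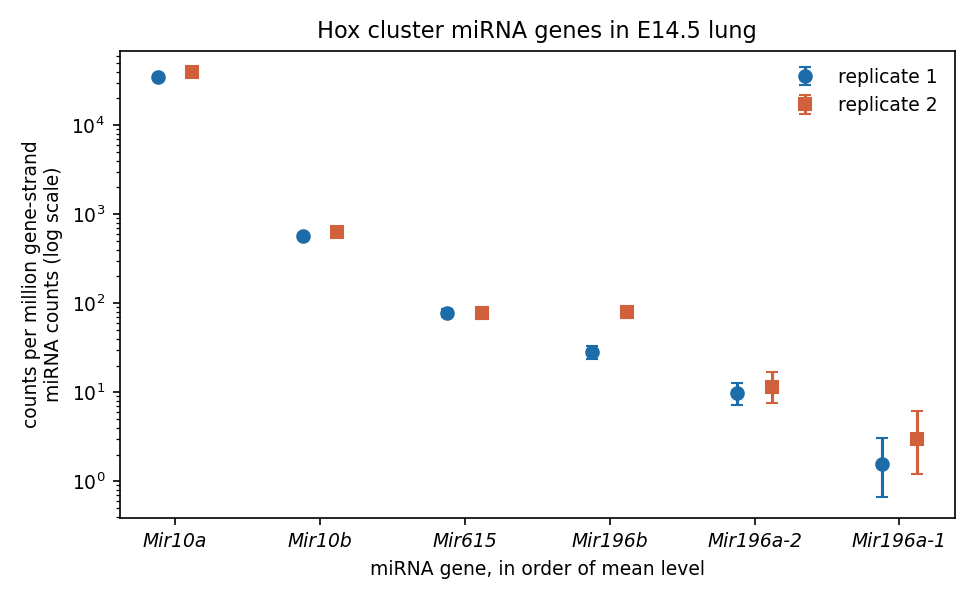
Level of each gene in CPM (log axis) in replicate 1 (circles) and replicate 2 (squares), with 95% exact binomial intervals as bars. Levels run from 37322 CPM for Mir10a to 2.28 CPM for Mir196a-1, and Mir196b is the gene whose libraries stand furthest apart, at 28.3 and 78.9 CPM.

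By mean level the order was Mir10a, Mir10b, Mir615, Mir196b, Mir196a-2 and Mir196a-1. By assigned counts, the step from Mir615 to Mir196b, of the 5 between neighbours, did not exceed the spread between libraries. Mir615 was 2.74-fold above Mir196b in replicate 1, where Mir196b made up 26.7% (23.0 to 30.6) of the counts of both. In replicate 2 their counts were 182 and 184, a share for Mir196b of 50.3% (45.03 to 55.5), and the log2 ratio over both libraries was 0.72 ± 1.04 (SD, n = 2). The other steps had the same direction in both libraries and exceeded their SD. The log2 ratios were 2.94 ± 0.12 for Mir10b to Mir615, 2.15 ± 0.87 for Mir196b to Mir196a-2 and 2.30 ± 0.49 for Mir196a-2 to Mir196a-1. The last 2 ratios compare assigned reads, and since the miR-196a counts are lower bounds, they do not settle the order of these genes. With 2 libraries an exact two-sided sign test cannot go below p = 0.5, so no test of these ratios is given.

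A miRNA read covers the mature product and not the hairpin, so these levels are per gene. Divided by hairpin length, which runs from 68 nt for Mir10b to 110 nt for Mir10a, the 5 log2 ratios became 5.27, 3.38, 0.61, 2.15 and 2.56, and the order stayed the same. Differences in capture between sequences were not measured.

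Position along a cluster could be compared only within HoxB and HoxC, which hold a pair of these genes each, and only by assigned counts. In HoxB, Mir10a and Mir196a-1 lie 51.9 kb apart on the same strand, with 180744 against 8 counts in replicate 1 and 91880 against 7 in replicate 2. In HoxC, Mir615 and Mir196a-2 lie 41.5 kb apart, and Mir615 exceeded Mir196a-2 7.96-fold and 6.74-fold. In both clusters and both libraries the gene nearer the low-numbered end had more assigned counts. In each pair the gene at the higher-numbered end is a miR-196a copy, whose multimapping reads are not counted. Position therefore cannot be told apart from miRNA family and read assignment, and the counts do not settle an order by position.

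Of the counts of all 6 genes, the group 4 genes held 99.7% and 99.6%, Mir615 held 0.216% and 0.194%, and the miR-196 genes held 0.110% and 0.232%. By cluster, HoxB held 98.1% and 98.0% and HoxD 1.57% and 1.58%. HoxC held 0.243% and 0.223%, while HoxA, represented by Mir196b, held 0.0787% and 0.196%. Among the clusters, the share of HoxA had the largest relative difference between the libraries. All these shares are of assigned counts, in which the counts of the miR-196a genes are lower bounds.

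**Figure D3:**
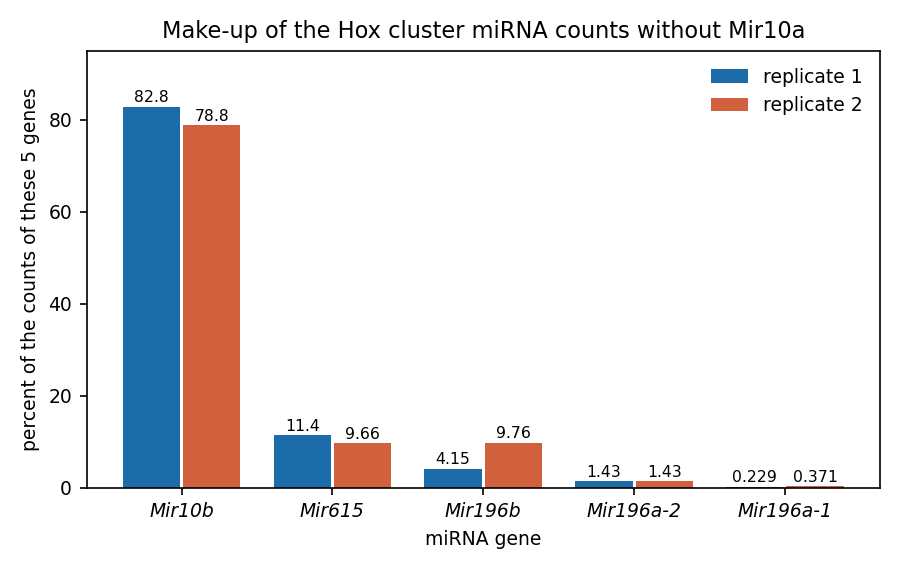
Percent of the summed assigned counts of the 5 genes other than Mir10a that each gene held in replicate 1 and replicate 2 (bars from 0). The counts of Mir196a-1 and Mir196a-2 are lower bounds. Mir10b held 82.8% and 78.8%, Mir615 11.4% and 9.66%, Mir196b 4.15% and 9.76%, Mir196a-2 1.43% in each, and Mir196a-1 0.229% and 0.371%.

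The miR-99 and miR-100 genes are the closest relatives of miR-10 by sequence, although none of them lies in a Hox cluster. Their 5p products are shown because they share a stretch with miR-10 and yet carry another seed.
miR-99a-5p: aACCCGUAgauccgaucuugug
miR-99b-5p: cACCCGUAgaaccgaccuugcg
miR-100-5p: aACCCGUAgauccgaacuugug
The longest stretch of miR-10a-5p found in miR-100-5p is 11 nt (guagauccgaa), starting at base 7 of the former and base 6 of the latter, so the sequences are in register but for 1 base near the 5′ end. Mir99a stood at 39249 and 34741 CPM, Mir99b at 19638 and 18646, and Mir100 at 2394 and 2126. All 3 were lower in replicate 2, the opposite order to Mir10a and Mir10b. Either order was common, since 48.0% of genes tested were higher in replicate 2 after scaling (below). With the variation common to all genes added to counting error, neither these relatives nor the miR-10 genes were called. The miR-10 genes together held fewer counts than these relatives, with a log2 ratio of -0.78 in replicate 1 and -0.47 in replicate 2 (-0.62 ± 0.21, SD, n = 2).

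Between the replicates, Mir196b differed most of the 6 genes. Mir10a differed by a small amount that passed a test of counting error only. With the choice of scaling, its log2 ratio of replicate 2 to replicate 1 ran from 0.024 to 0.16. All 6 reached the minimum of 10 counts in the sum of the libraries and were tested with the other genes for a difference between replicate 2 and replicate 1 on library sizes scaled by the trimmed mean of M-values (TMM). Exact two-sided binomial tests with Benjamini-Hochberg adjustment over the 404 genes tested called 41.8% of genes at an adjusted p of 0.05, and 2 of the 6 genes. Of genes tested, 17.8% were called as higher in replicate 2, the direction of both called members, and 24% as higher in replicate 1. A share of 2 in 6 is near the background and is no result about the set. Such tests compare the reads of these libraries and no condition.

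The log2 ratios that follow set replicate 2 over replicate 1, after TMM scaling and with 1 CPM added to each level. For Mir196b the ratio was 1.36 (exact binomial adjusted p = 3.62e-17). With nothing added to the levels it was 1.39, a 2.62-fold difference, and the interval from counting error alone ran from 1.07 to 1.72 on that scale. Of 272 genes with at least 100 counts over both libraries, a minimum chosen after the data had been seen, Mir196b had the highest log2 ratio, and 1 gene, the cardiac Mir208a (-4.66), lay further from 0. Over all 404 genes tested, Mir196b ranked 2 by its ratio, behind Mir199a-1 (1.56, from 15 and 26 counts), and 7 by distance from 0. For Mir10a the ratio was 0.07 (exact binomial adjusted p = 3.63e-33). For Mir10b it was 0.09, with an exact binomial adjusted p of 0.126. Against library totals, TMM moves each ratio by -0.09 and the size factors of DESeq2 by -0.14 where nothing is added to the levels, and by less for low genes with 1 CPM added. With library totals the ratio of Mir10b was 0.18 (exact binomial adjusted p = 0.000515), and over the alternatives its adjusted p in the exact tests ran from 0.000515 to 1.

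The other 3 genes were not called. Mir615 had a log2 ratio of -0.08 with TMM scaling and 0.0079 with library totals, so its direction is not settled. Mir196a-2 stood at 0.14 and Mir196a-1 at 0.58. With nothing added to the levels these were 0.16 and 0.85, with counting intervals on that scale of -0.57 to 0.86 and -0.84 to 2.51. At 15 counts over both libraries, a 2-fold higher level of Mir196a-1 in replicate 2 lay within its interval and was not detectable at this depth. The median log2 ratio of the 6 genes was 0.12 and that of all genes tested -0.03. The ratio was above 0 for 5 of the 6 and for 48.0% of genes tested.

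With the variation common to all genes added to counting error (edgeR common dispersion of 0.0337, a coefficient of variation of 18.3%), none (0) of the 6 genes passed, and 0.248% of genes tested did. Mir196b had an exact beta-binomial p of 0.000692 before adjustment and an adjusted p of 0.140. It was the 1 member under 0.05 before adjustment, as were 15 of the 404 genes tested. Mir10a had an adjusted p of 1 in the same exact test. Over all alternatives the adjusted p of Mir196b in the exact tests ran from 2.76e-19 to 0.140 and that of Mir10a from 3.69e-163 to 1. The dispersion was estimated from the same 2 libraries.

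Lists of other tissues that could enter a lung dissection moved with the replicates in different directions. The heart muscle list (3 of 3 detected), at 361 and 42.0 CPM, was lower where Mir196b was higher, mostly through Mir208a (299 and 11.6 CPM). The list of skeletal and cardiac muscle had 7.02 and 14.2 CPM, nearly all of it Mir206 (6.24 and 12.9 CPM), with Mir133a-1 and Mir133a-2 at 0 in both libraries. The gut, liver and kidney list (5 of 5 detected) had 164 and 199 CPM, with Mir122 at 22.4 and 39.5 CPM and Mir194-2 at 58.5 and 87.9, but Mir192 at 81.5 and 66.5. The neuronal list had 86.8 and 78.9 CPM, nearly all of it Mir137, with 4 of 6 members at 0 in both libraries. The members at 0 in these lists share 20 nt with other hairpins and can lose multimapping reads, so their zeros do not show absence. The part of other tissue in the level of Mir196b was not tested.

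**Figure D4:**
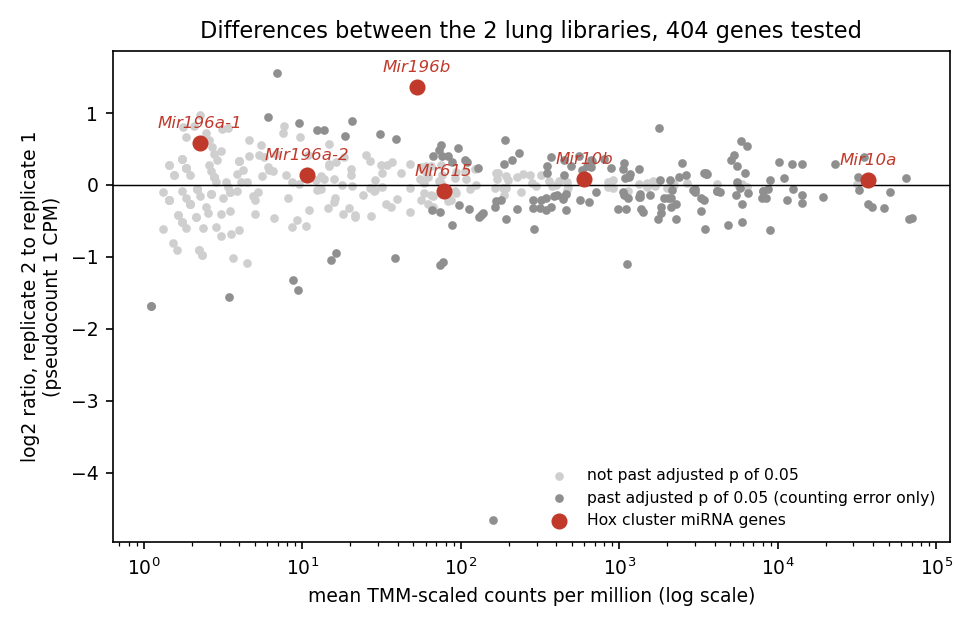
Log2 ratio of replicate 2 to replicate 1 (pseudocount of 1 CPM) against mean TMM-scaled CPM (log axis) for the 404 genes tested, with the 6 Hox cluster miRNA genes in red and genes past an adjusted p of 0.05 with counting error only in dark grey. Mir196b lies at 1.36, Mir196a-1 at 0.58, and the other 4 between -0.08 and 0.14.

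Counts on the strand opposite to the hairpins were nearly absent. Mir10a had 2 such counts in replicate 2, and the other members had 0 in both libraries. A count of 0 allows a level of up to 3 counts, or 0.585 and 1.29 CPM in the respective libraries.

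The genes whose levels over the 2 libraries lay nearest to those of the miR-10 genes were found by Euclidean distance of log2(CPM + 1). For Mir10a they were Mir99a (distance 0.24) and Mir17 (0.27), and for Mir10b they were Mir665 (0.10) and Mir199b (0.15). Over 2 libraries such a distance reflects mainly the level. It describes no shared pattern across conditions.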

How the data were processed

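MicroRNA-seq counts of 2 lung libraries of 1 group were used. The authors deposited whole-number counts per miRNA gene aligned to mm10 and annotated with GENCODE M4, per the deposited readme. The aligner, its mismatch limit and the counter were not stated in the sources used here. Of 3 columns, the gene-strand one was used. The summary entries (unmapped, multimapping, no feature, ambiguous) stayed out of library sizes. They were 12.7%, 32.9%, 4.10% and 0% of reads in replicate 1, and 11.7%, 33.1%, 3.93% and 0% in replicate 2. Identifiers were matched to GENCODE M21 (1894 of 1973).

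CPM, exact binomial intervals and ratios within a library were computed from these counts. Library sizes were scaled by TMM over all genes (edgeR 4.0.16, R 4.3.3). Exact binomial tests used SciPy 1.17.1 in Python 3.11.15, with a minimum of 10 counts and an adjusted p of 0.05. Their calls were checked on data simulated with counting error only, without the further variation between these libraries. Alternatives were other denominators, strand columns, pseudocounts, count filters, scalings (DESeq2 1.42.0), leaving out a replicate, and added dispersion. TMM over filtered genes and division by hairpin length were chosen later, with the data seen.

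Named genes were the 6 members, Mir99a, Mir99b, Mir100, other miRNA genes within 50 kb of a Hox gene, the 2 genes nearest in level to each miR-10 gene, Mir208a and the marker lists. Members and lists were chosen with earlier results of these data known. The p-values measure reads of these libraries.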

Additional observations from a re-analysis of the deposited data

How the results depend on the processing

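With multimapping and unassigned reads in the denominator, mean levels of all 6 genes were lower, at 21591 CPM for Mir10a, 347 for Mir10b, 45.01 for Mir615, 31.1 for Mir196b, 6.17 for Mir196a-2 and 1.32 for Mir196a-1. Mir615 was 83.6 CPM without the most abundant gene in the denominator and 75.6 CPM with counts regardless of strand, moves that exceeded its small SD. Per nt of hairpin length, added after the data had been seen, the log2 ratio was 5.27 for Mir10a to Mir10b and 3.38 for Mir10b to Mir615. The log2 ratio of replicate 2 to replicate 1 of Mir615 was 0.0079 with library totals. With the common dispersion added, 1 of 404 genes and 0 of the 6 members were called, and Mir10a and Mir196b were no longer past the threshold. The number of members called was 3 with library totals and 2 with DESeq2 size factors. Of the 404 genes tested, 177 and 168 were called with these scalings, so neither count is a result about the set. Mir10b passed with library totals and with TMM over filtered genes (log2 ratio 0.11, exact binomial adjusted p = 0.0496). Without replicate 1 or replicate 2, the level of Mir196b ranged from 28.3 to 78.9 CPM and the log2 ratio of Mir615 to Mir196b from -0.02 to 1.46. No paired analysis was possible because there is 1 group. Depth limits Mir196a-1 and Mir196a-2 most, at 15 and 77 counts over both libraries. Their multimapping reads are counted under no gene at any depth.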
